A study of Homo sapiens with 6 samples.

Results

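The 8 genes DPY19L1, FAM135A, TMEM245, ASPH, GULP1, SLC7A2, CACNA2D1 and ACVR2B were taken by symbol from the count tables, because their counts were lower after an siRNA against PPARG in both cell lines of the study. All 8 were found among 37493 gene identifiers, and all 8 passed the expression filter (5 CPM, counts scaled to the size of the library, in 1 or both libraries of the line) in both lines, as did 9588 genes in all. The lines, Eso26 and OE33, are established from human esophageal adenocarcinoma, a gland-forming cancer of the lower esophagus. There were 4 RNA sequencing libraries, Eso26 siPPARG, Eso26 control, OE33 siPPARG and OE33 control, and 2 lists of PPARG ChIP-seq peaks that were not used here. All cells were transfected by Lipofectamine RNAiMAX, siPPARG cells with an siRNA against PPARG and control cells with a non-silencing siRNA. The medium was RPMI-1640 for Eso26 and DMEM for OE33, so line and medium cannot be told apart. No source used here states the sequence of the siRNA or whether it was 1 duplex or a pool. The series' text speaks of triplicates, but each condition has 1 column of counts in each line, so the spread between cultures is not known. Intervals below are 95% intervals that cover counting error only.

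PPARG is a nuclear receptor that binds DNA together with RXR and activates genes of lipid storage and differentiation. An siRNA guides the cutting of the mRNA it pairs with, and can also lower other mRNAs that match its seed. The 8 genes belong to no single known pathway. DPY19L1 is an enzyme that attaches mannose to proteins in the endoplasmic reticulum. ASPH encodes a hydroxylase of EGF-like domains and, from the same locus, calcium-handling proteins of that compartment. GULP1 is an adaptor for the uptake of dying cells, and SLC7A2 imports arginine and other basic amino acids. CACNA2D1 is an accessory subunit of voltage-gated calcium channels, and ACVR2B is a type II receptor for activins. TMEM245 and FAM135A are little studied.

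Total counts ran from 16866996 to 23019840 per library. The epithelial identity of the cells held in every library: all 8 epithelial markers were at 5 CPM or more, with summed levels of 9182 CPM in OE33 siPPARG, 9510 CPM in OE33 control, 5320 CPM in Eso26 siPPARG and 5534 CPM in Eso26 control. Squamous, mesenchymal, immune, endothelial and fat cell lists summed to at most 25.9 CPM in any library. The squamous list of 6 genes summed to 6.41 CPM in OE33 siPPARG with 2 genes at 0, against 12.6 CPM in OE33 control with 1 at 0. Within it the genes went both ways: KRT13, a keratin gene, had 32 counts in OE33 siPPARG, against 165 in OE33 control (ratio 0.181, interval 0.120 to 0.266), and DSG3, a desmosome gene under the expression filter, had 79 counts in OE33 siPPARG, against 43 in OE33 control (ratio 1.72, interval 1.17 to 2.55). The part of squamous markers in the levels of the 8 genes was not tested.

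The targeted gene, PPARG, was lower in OE33 siPPARG. It had 313 counts (17.3 CPM) in OE33 siPPARG, against 2156 counts (127 CPM) in OE33 control, a ratio of 0.136 (interval 0.120 to 0.153). In the other line PPARG had 201 counts (9.64 CPM) in Eso26 siPPARG, against 259 counts (11.4 CPM) in Eso26 control, a ratio of 0.844 (interval 0.698 to 1.02). The Eso26 interval includes 1, so a lower level in the library labelled siPPARG was not shown beyond counting error. It lies wholly above the OE33 interval, so a fall of the size seen in OE33 was absent from the Eso26 counts. All 8 genes were lower in siPPARG in both lines. Their log2 folds of siPPARG over control ran from -0.98 to -0.64 with a median of -0.75 in OE33, and from -1.02 to -0.56 with a median of -0.75 in Eso26. Over all kept genes the median was -0.0075 in OE33 and -0.0073 in Eso26. The genes were chosen on these values, which are therefore a description with no test. With 1 siRNA treatment and 1 library per condition, loss of PPARG and other effects of the siRNA cannot be told apart. In bulk samples, fewer cells that use a gene and less of its RNA per cell cannot be told apart either.

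**Figure D1:**
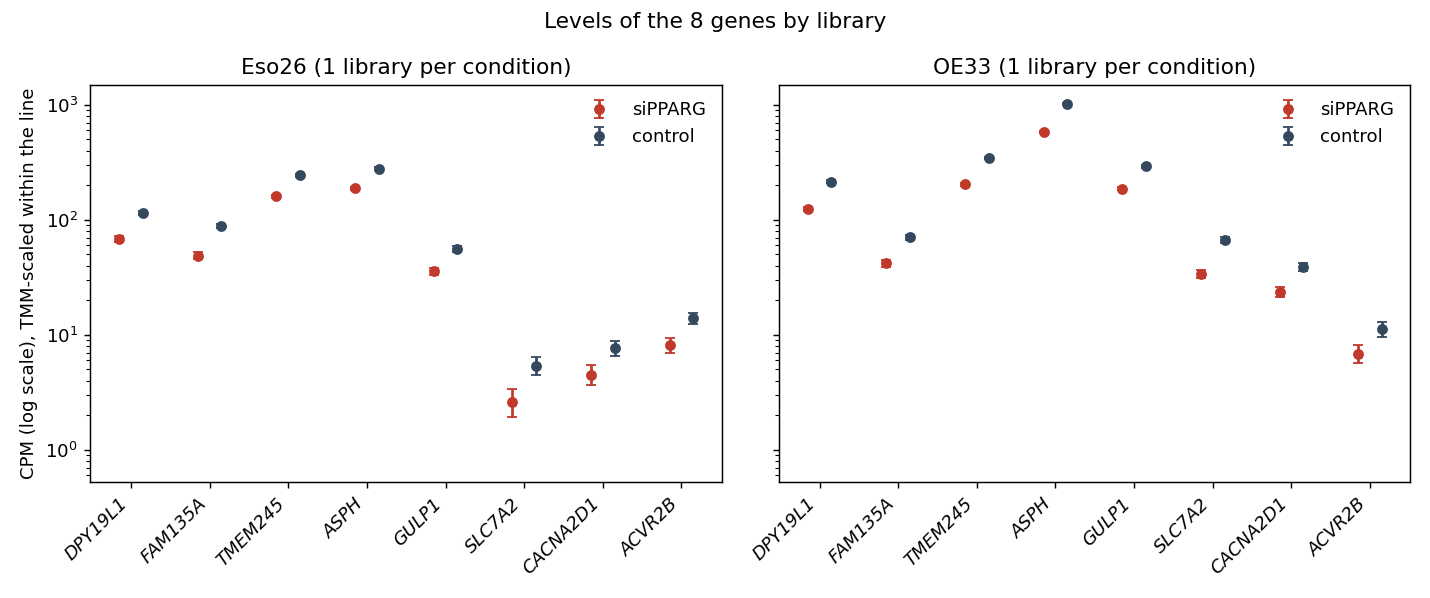
Level of each of the 8 genes in CPM, on a log axis, in the siPPARG library (red) and the control library (dark) of Eso26 (left panel) and OE33 (right panel); bars are 95% Poisson intervals of the count. All siPPARG points lie below their control points, with no overlap of the bars.

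Past 1.5-fold (a log2 fold of 0.585 in size), 8 of the 8 genes were lower in OE33, where 2.38% of kept genes were lower and 5.64% were past it in either direction, and 7 of the 8 in Eso26, where 1.15% were lower and 2.4% past it in either direction. ASPH lay just outside in Eso26, at -0.56, and TMEM245 did too with scaling by library totals alone, at -0.57. Lower past 1.5-fold in both lines were 11 genes, 0.115% of those kept in both, namely 7 of the 8 together with CEACAM6, HMGA2, EGR1 and AQP3. SLC7A2, CACNA2D1, CEACAM6, HMGA2 and AQP3 passed the Eso26 filter through the control library alone. A lower siPPARG value there was built into their selection. Since the 8 genes were picked from this contrast, nothing is read from these shares. Ranked by the weaker of their 2 log2 folds, the 8 genes held places 4 to 14 of 9588, and AQP3, DENND1B and TMEM64, which are not among the 8, stood between them. Close beyond them came RAP2C, whose weaker log2 fold was -0.56, as was that of ASPH.

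**Figure D2:**
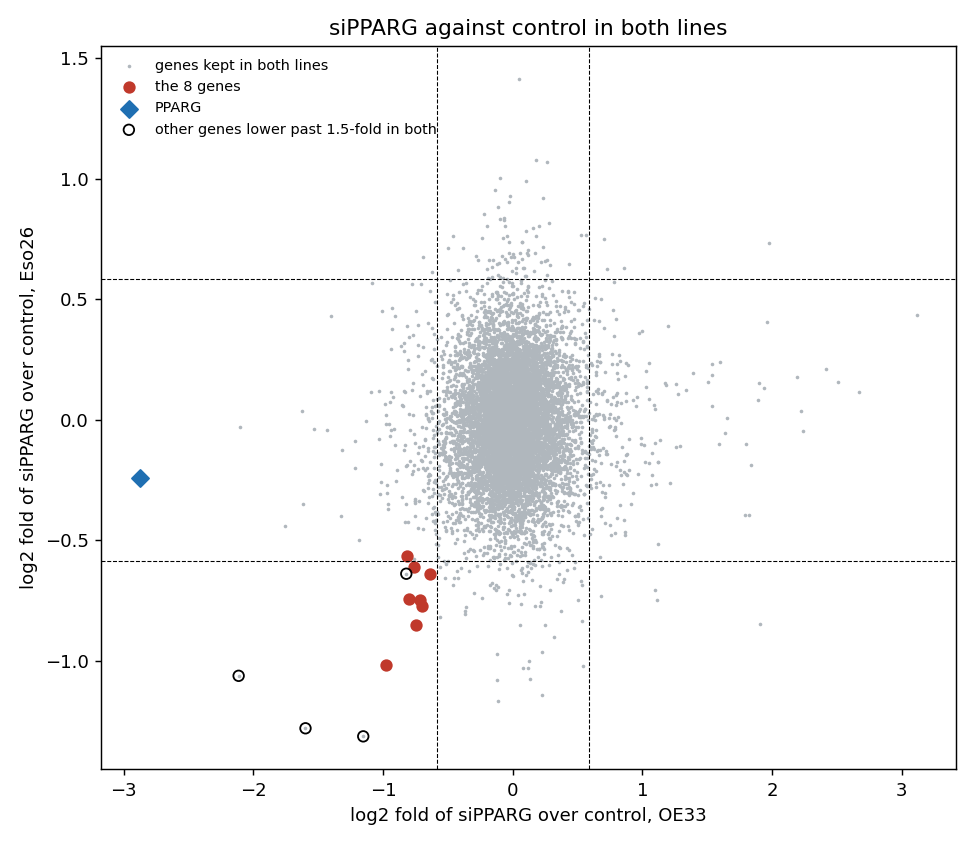
Log2 fold of siPPARG over control in Eso26 (vertical axis) against OE33 (horizontal axis) for the 9588 genes kept in both lines (grey), the 8 genes (red), PPARG (blue diamond) and the 4 other genes lower past 1.5-fold in both (open circles). The 8 genes lie together at the lower left, whereas PPARG lies far left in OE33 at -2.87 and near 0 in Eso26 at -0.24.

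Among the enzymes and membrane proteins, ASPH and TMEM245 had a lower ratio in OE33 than in Eso26, as had DPY19L1 by a smaller gap. ASPH had 10529 counts (582 CPM) in OE33 siPPARG, against 17314 counts (1023 CPM) in OE33 control, a ratio of 0.568 (interval 0.555 to 0.582). In Eso26 the gene had 3938 counts (189 CPM) in Eso26 siPPARG, against 6333 counts (279 CPM) in Eso26 control, a ratio of 0.676 (interval 0.649 to 0.703). The 2 intervals of ASPH do not overlap. TMEM245 had 3679 counts (203 CPM) in OE33 siPPARG, against 5830 counts (344 CPM) in OE33 control, a ratio of 0.590 (interval 0.566 to 0.615). Its Eso26 values were 3337 counts (160 CPM) in Eso26 siPPARG, against 5542 counts (244 CPM) in Eso26 control, a ratio of 0.654 (interval 0.627 to 0.683). Here too the intervals of the lines do not overlap, whereas those of the other 6 genes do. For TMEM245 this depends on the scaling. With DESeq2 size factors its log2 fold moved from -0.76 to -0.75 in OE33 and from -0.61 to -0.63 in Eso26, which brings the lines closer. Whether such gaps exceed the spread between cultures was not tested.

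DPY19L1, the mannosyltransferase, had 2237 counts (124 CPM) in OE33 siPPARG, against 3643 counts (215 CPM) in OE33 control, a ratio of 0.574 (interval 0.544 to 0.605). For Eso26 the values of DPY19L1 were 1420 counts (68.1 CPM) in Eso26 siPPARG, against 2587 counts (114 CPM) in Eso26 control, a ratio of 0.597 (interval 0.559 to 0.637). Reads shared between DPY19L1 and its pseudogene copies may have been counted in ways that are not known. FAM135A had 760 counts (42.0 CPM) in OE33 siPPARG, against 1192 counts (70.4 CPM) in OE33 control, a ratio of 0.596 (interval 0.544 to 0.653). For Eso26 the values of FAM135A were 1020 counts (48.9 CPM) in Eso26 siPPARG, against 2002 counts (88.3 CPM) in Eso26 control, a ratio of 0.554 (interval 0.513 to 0.597). The siPPARG library was the lower one in all 4 pairs, and for both genes the intervals of the lines overlap.

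GULP1, whose worm counterpart CED-6 acts in the clearance of cell corpses, had 3389 counts (187 CPM) in OE33 siPPARG, against 4934 counts (292 CPM) in OE33 control, a ratio of 0.642 (interval 0.614 to 0.671). In Eso26 GULP1 had 743 counts (35.6 CPM) in Eso26 siPPARG, against 1260 counts (55.6 CPM) in Eso26 control, a ratio of 0.641 (interval 0.585 to 0.702). Its log2 folds differed by 0.0017 (OE33 minus Eso26), the smallest gap of the 8, which ran from -0.25 for ASPH to 0.11 for FAM135A.

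SLC7A2, the amino acid importer, had the lowest ratio of the 8 in both lines. It had 612 counts (33.8 CPM) in OE33 siPPARG, against 1130 counts (66.8 CPM) in OE33 control, a ratio of 0.506 (interval 0.458 to 0.559). In Eso26 SLC7A2 had 54 counts (2.59 CPM) in Eso26 siPPARG, against 121 counts (5.34 CPM) in Eso26 control, a ratio of 0.485 (interval 0.345 to 0.674), with the widest interval of the 8 there. It passed the Eso26 filter through the control library alone, so a lower siPPARG value was built into its selection.

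CACNA2D1, the calcium channel subunit, had 428 counts (23.6 CPM) in OE33 siPPARG, against 659 counts (38.9 CPM) in OE33 control, a ratio of 0.607 (interval 0.536 to 0.687). In Eso26 CACNA2D1 had 94 counts (4.51 CPM) in Eso26 siPPARG, against 173 counts (7.63 CPM) in Eso26 control, a ratio of 0.591 (interval 0.454 to 0.764), and it too passed the filter there through the control library alone. ACVR2B, the activin receptor, had 124 counts (6.85 CPM) in OE33 siPPARG, against 189 counts (11.2 CPM) in OE33 control, a ratio of 0.613 (interval 0.485 to 0.773). In Eso26 ACVR2B had 170 counts (8.15 CPM) in Eso26 siPPARG, against 317 counts (14.0 CPM) in Eso26 control, a ratio of 0.583 (interval 0.481 to 0.704). Both genes were lower in siPPARG in each line, on small counts. ACVR2B-AS1, an antisense gene of ACVR2B, had 5 counts in OE33 siPPARG, against 4 in OE33 control, and 20 counts in Eso26 siPPARG, against 13 in Eso26 control. Whether counting used strand is not stated, so reads of the 2 genes cannot be told apart.

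The level of each gene in OE33 against Eso26 played no part in choosing the 8, and was tested over the 4 libraries with treatment as a covariate. The error term of this test was not free of the choice. A gene's own spread in the fit is the gap between its siPPARG folds in the 2 lines, moderated over all genes. Choosing genes lower in both lines favours a small gap, so the SEs and p-values of the 8 may be too small. Of the 8 genes, 6 differed between the lines by edgeR's quasi-likelihood test adjusted over 11129 genes, where 71.3% of all genes did, so that the share is near the background. All 6 were higher in OE33, as were 37.1% of all genes, while 34.2% were lower. SLC7A2 showed the largest difference, a log2 fold of OE33 over Eso26 of 3.74 (SE 0.16, edgeR adjusted p = 2.98e-05). GULP1 followed at 2.46 (SE 0.12, edgeR adjusted p = 4.42e-05). CACNA2D1 stood at 2.44 (SE 0.16, edgeR adjusted p = 0.000106). SLC7A2 was 13.7 times as high in OE33 in the siPPARG libraries (interval 10.4 to 18.5) and 13.1 times in the control libraries (interval 10.8 to 15.9), and the 2 intervals overlap.

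The other differences were smaller. ASPH stood at 1.82 (SE 0.12, edgeR adjusted p = 0.000121), DPY19L1 at 0.96 (SE 0.11, edgeR adjusted p = 0.000828) and TMEM245 at 0.49 (SE 0.11, edgeR adjusted p = 0.0116). FAM135A, at -0.21 (SE 0.12, edgeR adjusted p = 0.172), and ACVR2B, at -0.22 (SE 0.18, edgeR adjusted p = 0.302), did not pass the test. Each library was also left out in turn, with the treatment term dropped, and DPY19L1 and TMEM245 then lost their calls in some of these fits. DPY19L1 then stood at 0.63 without Eso26 siPPARG (edgeR adjusted p = 0.165) and 0.51 without OE33 control (edgeR adjusted p = 0.0607). TMEM245 stood at 0.22 without Eso26 siPPARG (edgeR adjusted p = 0.577), 0.85 without Eso26 control (edgeR adjusted p = 0.0781) and 0.080 without OE33 control (edgeR adjusted p = 0.745). FAM135A passed the test at -0.64 without OE33 control (edgeR adjusted p = 0.0464). The fit has 1 residual degree of freedom, and the 2 libraries of a line stand for it.

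**Figure D3:**
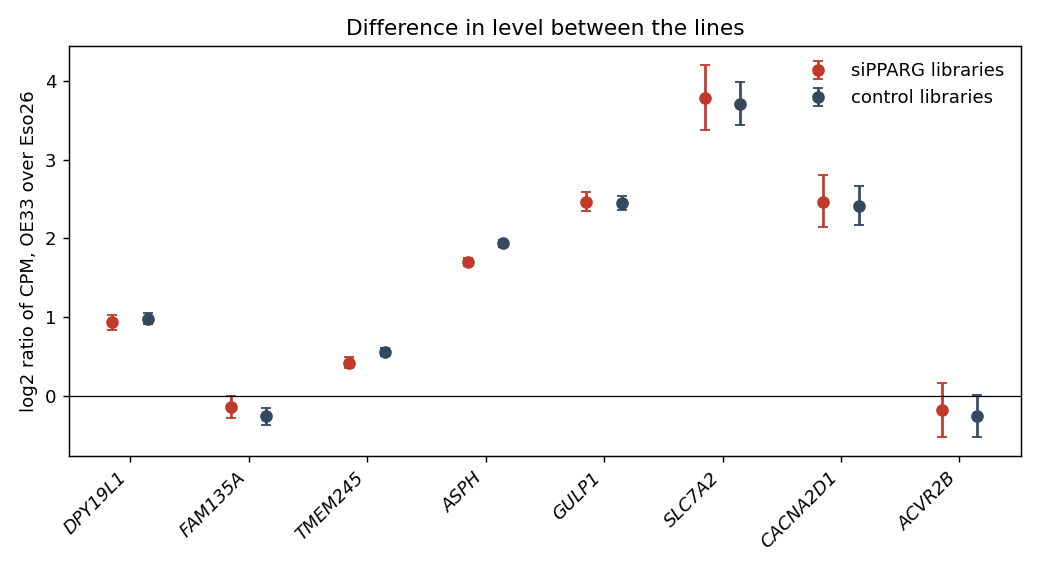
Log2 ratio of CPM, OE33 over Eso26, for each of the 8 genes in the siPPARG libraries (red) and the control libraries (dark); bars are 95% counting intervals. SLC7A2, GULP1, CACNA2D1 and ASPH lie far above 0 in both, and FAM135A and ACVR2B just below it.

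Among 21 close relatives of the 8 genes, OE33 had 0 of 12 kept genes lower and 0 higher past 1.5-fold (median log2 fold 0.0020) and Eso26 had 2 of 10 kept genes lower and 0 higher past 1.5-fold (median log2 fold -0.092). ACVR2A, the other activin type II receptor, had 182 counts in OE33 siPPARG, against 170 in OE33 control (ratio 1.001, interval 0.808 to 1.24), and 299 counts in Eso26 siPPARG, against 337 in Eso26 control (ratio 0.964, interval 0.822 to 1.13). SLC7A1, the widely used arginine importer, stood at 1.002 (interval 0.951 to 1.06) in OE33 and at 0.805 (interval 0.774 to 0.836) in Eso26. Ratios here and below are of CPM, siPPARG over control. Neither relative was lower past 1.5-fold in either line. DPY19L4, a relative of DPY19L1, lay below its control in both lines without passing 1.5-fold. It stood at 0.803 (interval 0.727 to 0.886) in OE33 and 0.861 (interval 0.806 to 0.918) in Eso26. DPY19L3, a further mannosyltransferase, had 251 counts in OE33 siPPARG, against 254 in OE33 control (ratio 0.924, interval 0.773 to 1.10), and 249 counts in Eso26 siPPARG, against 439 in Eso26 control (ratio 0.616, interval 0.526 to 0.722). TGFBR2, a TGF-beta receptor, had 2571 counts in OE33 siPPARG, against 2413 in OE33 control (ratio 0.996, interval 0.942 to 1.05), and 1461 counts in Eso26 siPPARG, against 2486 in Eso26 control (ratio 0.639, interval 0.598 to 0.682). These 2 relatives were lower past 1.5-fold in Eso26 and not in OE33, and the difference between the lines was not tested. ASPHD1, which shares the hydroxylase domain of ASPH, stood above its control, at 1.24 (interval 1.09 to 1.42) in OE33 and 1.20 (interval 1.10 to 1.31) in Eso26.

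**Figure D4:**
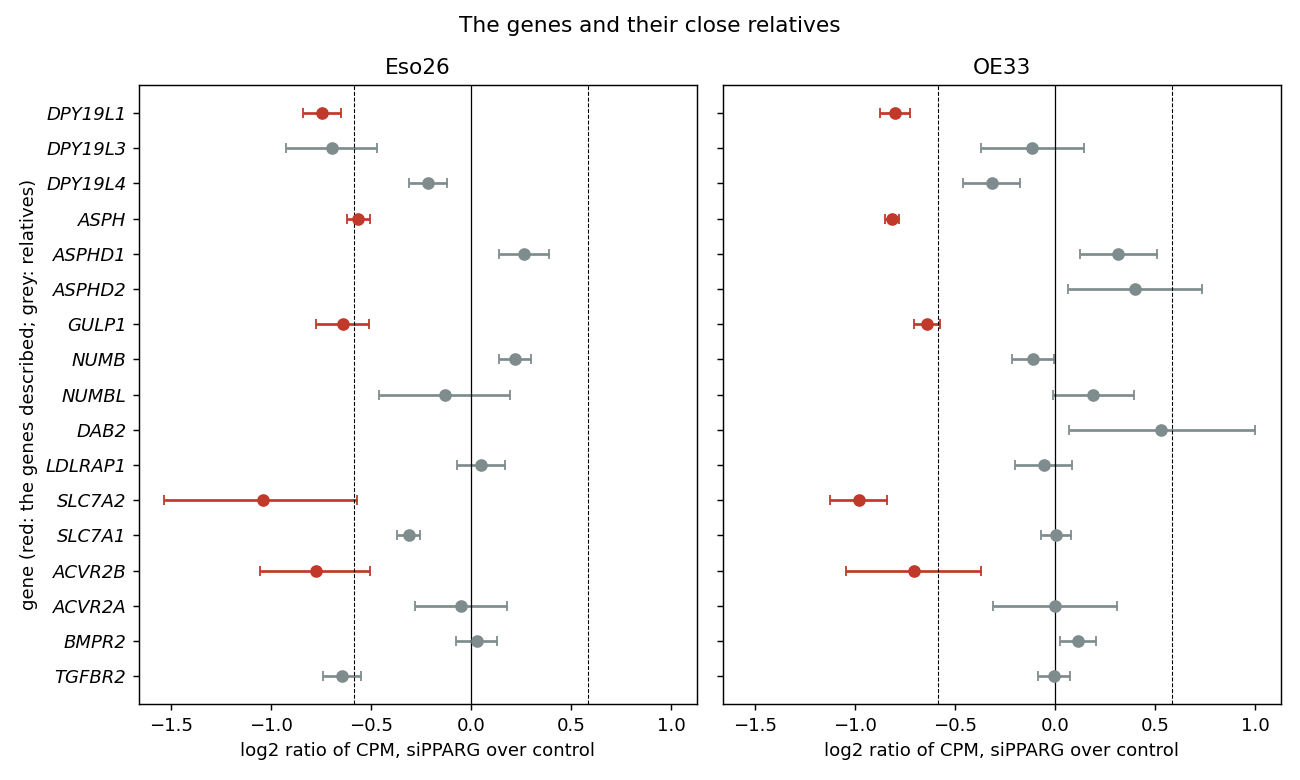
Log2 ratio of CPM, siPPARG over control, for 5 of the 8 genes (red) and their close relatives (grey) in Eso26 (left panel) and OE33 (right panel), with 95% counting intervals; dashed lines mark 1.5-fold, and a gene under the expression filter has no point. In OE33 all grey points lie right of all red points, and in Eso26 DPY19L3 and TGFBR2 lie among the red ones.

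The 9 lists around the 8 genes held 194 genes. In OE33 6 of 119 kept genes were lower past 1.5-fold, or 5.04% beside 2.38% of all kept genes. Higher there were 8 of the 119, beside 343 of all 10527 kept genes. In Eso26 6 of 110 were lower, or 5.455% beside 1.15% of all kept genes. Higher there were 2 of the 110, beside 131 of all 10443 kept genes. The lists were chosen with earlier results known, and these gaps, in either direction, were not tested. Of the 100 kept in both lines, 0 were lower past 1.5-fold in both and 0 higher in both, beside 0.115% and 0.0417% of all genes kept in both. A test of an effect common to both lines, by edgeR over the 4 libraries, called 0 of 126 list genes and 0% of all genes tested. At an unadjusted p under 0.05 stood 9 list genes, and 502 of the 11129 genes in all. DESeq2 and limma-voom called 0 of the list genes after adjustment. Of all genes, DESeq2 called 0.0988% lower and 0.018% higher.

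In activin and BMP signalling, the pathway of ACVR2B, OE33 had 2 of 29 kept genes lower and 2 higher past 1.5-fold (median log2 fold 0.0012), and Eso26 had 2 of 26 kept genes lower and 0 higher past 1.5-fold (median log2 fold -0.12). FST, which encodes the activin antagonist follistatin, had 1049 counts in OE33 siPPARG, against 2146 in OE33 control (ratio 0.457, interval 0.424 to 0.492), and 0 counts in both Eso26 libraries. ID1, a BMP target gene, had 3321 counts in OE33 siPPARG, against 5167 in OE33 control (ratio 0.601, interval 0.575 to 0.628). In Eso26 ID1 had 32 counts in siPPARG, against 56 in control (ratio 0.621, interval 0.389 to 0.976). It was under the expression filter there, and so not among the genes kept in both lines. INHBB, an activin subunit gene, had 120 counts in OE33 siPPARG, against 53 in OE33 control (ratio 2.12, interval 1.52 to 2.98), and 881 counts in Eso26 siPPARG, against 1085 in Eso26 control (ratio 0.882, interval 0.806 to 0.966). It passed the OE33 filter through the siPPARG library alone. The others past 1.5-fold were BMP2, higher in OE33, and TGFBR2 and TGFBR3, lower in Eso26.

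Of the voltage-gated calcium channel subunits, CACNA2D1's partners, OE33 had 0 of 3 kept genes lower and 1 higher past 1.5-fold (median log2 fold 0.54), and Eso26 had 0 of 3 kept genes lower and 0 higher past 1.5-fold (median log2 fold 0.29). The one past 1.5-fold, the subunit gene CACNG4, had 141 counts in OE33 siPPARG, against 84 in OE33 control (ratio 1.57, interval 1.19 to 2.08), and 0 counts in both Eso26 libraries. It passed the OE33 filter through the siPPARG library alone. For calcium handling in the endoplasmic reticulum, OE33 had 2 of 13 kept genes lower and 0 higher past 1.5-fold (median log2 fold 0.14), and Eso26 had 0 of 13 kept genes lower and 0 higher past 1.5-fold (median log2 fold 0.052). JPH1, which ties that compartment to the cell membrane, stood at 0.552 (interval 0.481 to 0.633) in OE33 and 0.799 (interval 0.728 to 0.877) in Eso26. SARAF, a brake on store-operated calcium entry, stood at 0.629 (interval 0.592 to 0.668) in OE33 and 1.04 (interval 0.979 to 1.10) in Eso26.

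The Notch pathway has receptors and ligands with EGF-like domains of the kind that ASPH modifies, and OE33 had 2 of 19 kept genes lower and 0 higher past 1.5-fold (median log2 fold 0.076), and Eso26 had 0 of 19 kept genes lower and 1 higher past 1.5-fold (median log2 fold 0.0042). HES1, a Notch target gene, stood at 0.619 (interval 0.559 to 0.685) in OE33 and 1.10 (interval 0.965 to 1.26) in Eso26. LFNG, which adds sugars to Notch, stood at 0.648 (interval 0.561 to 0.748) in OE33 and 1.30 (interval 1.23 to 1.38) in Eso26. DLL4, a Notch ligand gene, stood at 0.743 (interval 0.556 to 0.990) in OE33 and 1.55 (interval 1.19 to 2.04) in Eso26. LFNG and DLL4 lay below their controls in OE33 and above them in Eso26. DLL4 passed the filter through its higher library alone in each line, so its directions were built into its selection. Among thrombospondin-repeat proteins, a class that carries the mannose DPY19L1 relatives attach, OE33 had 0 of 6 kept genes lower and 2 higher past 1.5-fold (median log2 fold 0.50), and Eso26 had 0 of 4 kept genes lower and 0 higher past 1.5-fold (median log2 fold 0.022). CCN1, a matrix-bound growth regulator, had 3583 counts in OE33 siPPARG, against 1561 in OE33 control (ratio 2.15, interval 2.02 to 2.28). ADAMTS9, a secreted protease gene, had 1727 counts in OE33 siPPARG, against 867 in OE33 control (ratio 1.86, interval 1.72 to 2.02).

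In arginine handling, the process of SLC7A2, OE33 had 0 of 14 kept genes lower and 1 higher past 1.5-fold (median log2 fold 0.084), and Eso26 had 0 of 13 kept genes lower and 0 higher past 1.5-fold (median log2 fold -0.051). NOS3, a nitric oxide synthase gene, had 237 counts in OE33 siPPARG, against 137 in OE33 control (ratio 1.62, interval 1.30 to 2.01). In the engulfment of dying cells, the process of GULP1, OE33 had 0 of 13 kept genes lower and 2 higher past 1.5-fold (median log2 fold -0.013), and Eso26 had 0 of 12 kept genes lower and 1 higher past 1.5-fold (median log2 fold 0.024). ABCA1, a lipid exporter gene, had 546 counts in OE33 siPPARG, against 289 in OE33 control (ratio 1.77, interval 1.53 to 2.04). GAS6, a bridging ligand gene, stood at 1.76 (interval 1.30 to 2.40) in OE33, and ABCA7, a relative of ABCA1, at 1.60 (interval 1.30 to 1.95) in Eso26. The few list genes past 1.5-fold in these processes were higher, and GAS6 passed the OE33 filter through the siPPARG library alone. Of all kept genes, 343 of 10527 in OE33 and 131 of 10443 in Eso26 were higher past 1.5-fold. Nothing is read from so few list genes.

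RNA interference is the machinery an siRNA uses, and OE33 had 0 of 14 kept genes lower and 0 higher past 1.5-fold (median log2 fold 0.038), and Eso26 had 3 of 14 kept genes lower and 0 higher past 1.5-fold (median log2 fold -0.17). DICER1, which cuts small RNA precursors, had 2389 counts in Eso26 siPPARG, against 5071 in Eso26 control (ratio 0.512, interval 0.488 to 0.538), and 1604 counts in OE33 siPPARG, against 1281 in OE33 control (ratio 1.17, interval 1.09 to 1.26). AGO2, the slicer protein, stood at 0.774 (interval 0.741 to 0.808) in OE33 and 0.577 (interval 0.550 to 0.604) in Eso26. TNRC6A, a silencing partner of AGO2, stood at 1.29 (interval 1.20 to 1.40) in OE33 and 0.575 (interval 0.534 to 0.619) in Eso26. DICER1 and TNRC6A lay below their controls in Eso26 and above them in OE33. Their part in the levels of the 8 genes was not tested.

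**Figure D5:**
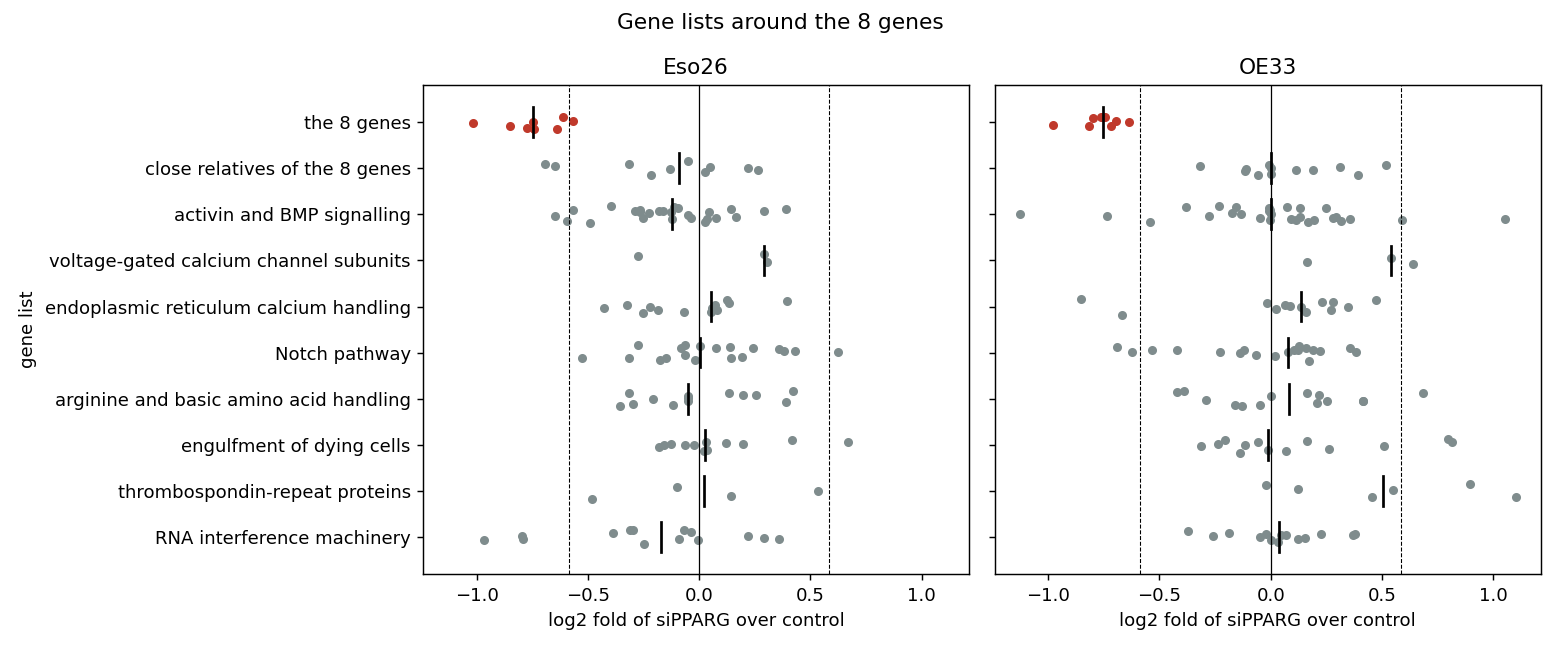
Log2 fold of siPPARG over control for the 8 genes (red) and the kept members of 9 gene lists (grey) in Eso26 (left panel) and OE33 (right panel); each point is a gene, black bars are medians and dashed lines mark 1.5-fold. The 8 genes lie around -0.75 in both lines, and the list medians lie between -0.17 and 0.54.

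The neighbours of the 8 genes on the chromosomes were then read, as the nearest gene on each side, by RefSeq gene order, that passed the filter in at least 1 line. Of 16 neighbours, 15 were kept in OE33, with 0 lower and 2 higher past 1.5-fold and a median log2 fold of -0.085. In Eso26 13 were kept, with 0 lower and 0 higher and a median of -0.091. PDGFRL, next to SLC7A2, had 201 counts in OE33 siPPARG, against 116 in OE33 control (ratio 1.62, interval 1.28 to 2.05), and PCLO, next to CACNA2D1, had 191 counts in OE33 siPPARG, against 102 in OE33 control (ratio 1.75, interval 1.37 to 2.25). CHD7, a chromatin remodeller gene next to ASPH, had 1066 counts in OE33 siPPARG, against 852 in OE33 control (ratio 1.17, interval 1.07 to 1.28), and 2424 counts in Eso26 siPPARG, against 3804 in Eso26 control (ratio 0.693, interval 0.658 to 0.729), the lowest neighbour of that line. No neighbour was lower past 1.5-fold in either line, beside 2.38% of all kept genes in OE33 and 1.15% in Eso26. Higher past it were 343 of all 10527 kept genes in OE33. With so few neighbours, nothing is read from these counts.

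Genes whose pair of log2 folds lay nearest the median pair of the 8, out of those kept in both lines, included AQP3, DENND1B, RAP2C, C21orf91 and TMEM64, at distances from 0.126 to 0.251 on the log2 scale. The measure rests on 1 value per line. AQP3 passed the Eso26 filter, and C21orf91 the filter of both lines, through the control library alone. AQP3, a water and glycerol channel gene, had 6876 counts in OE33 siPPARG, against 11357 in OE33 control (ratio 0.566, interval 0.549 to 0.583), and 69 counts in Eso26 siPPARG, against 118 in Eso26 control (ratio 0.636, interval 0.465 to 0.862). RAP2C, a small GTPase gene, stood at 0.676 (interval 0.621 to 0.736) in OE33 and 0.565 (interval 0.519 to 0.616) in Eso26. DENND1B stood at 0.588 (interval 0.506 to 0.683) in OE33 and 0.669 (interval 0.595 to 0.751) in Eso26.

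Promoter windows from RefSeq (GRCh38.p14; the 250 bases before a gene's start) were held for 6 of the 8 genes, 7 windows in all, with 2 for DPY19L1; ASPH and SLC7A2 are named only. The windows of 4 genes are shown, since these genes were lower together while their promoters differ in make-up. Those of FAM135A and ACVR2B hold GC boxes, in capitals (CCGCCC on either strand), and those of GULP1 and the first start of DPY19L1 hold none.
FAM135A promoter, chr6:70413258-70413507, plus strand: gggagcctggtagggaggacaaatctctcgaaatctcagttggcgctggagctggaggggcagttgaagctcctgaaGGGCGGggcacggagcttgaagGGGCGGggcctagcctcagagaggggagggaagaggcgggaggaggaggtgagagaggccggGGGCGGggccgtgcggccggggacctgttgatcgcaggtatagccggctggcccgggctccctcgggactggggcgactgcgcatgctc
ACVR2B promoter, chr3:38453640-38453889, plus strand: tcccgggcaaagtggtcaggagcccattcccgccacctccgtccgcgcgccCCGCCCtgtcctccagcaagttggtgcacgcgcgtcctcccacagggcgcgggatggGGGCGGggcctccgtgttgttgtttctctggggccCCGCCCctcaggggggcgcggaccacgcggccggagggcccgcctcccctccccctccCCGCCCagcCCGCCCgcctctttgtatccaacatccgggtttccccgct
GULP1 promoter, chr2:188291624-188291873, plus strand: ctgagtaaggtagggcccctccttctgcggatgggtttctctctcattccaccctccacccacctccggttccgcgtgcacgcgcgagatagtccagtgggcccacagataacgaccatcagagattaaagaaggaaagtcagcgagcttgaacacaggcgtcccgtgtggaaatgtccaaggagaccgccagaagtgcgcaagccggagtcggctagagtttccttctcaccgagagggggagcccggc
DPY19L1 promoter, chr7:35038042-35038291, minus strand: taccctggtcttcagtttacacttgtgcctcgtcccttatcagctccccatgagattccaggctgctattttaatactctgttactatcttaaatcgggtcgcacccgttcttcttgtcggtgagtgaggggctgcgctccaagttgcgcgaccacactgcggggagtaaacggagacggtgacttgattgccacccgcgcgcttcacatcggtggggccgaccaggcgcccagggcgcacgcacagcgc

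GC boxes numbered 3 in the window of FAM135A, 5 in that of ACVR2B, 3 in CACNA2D1, 2 in TMEM245 and 9 in the second window of DPY19L1. Thus 5 of 7 windows held CCGCCC, as did 42.6% of all 35116 windows and 65.7% of windows of genes kept in both lines. A direct repeat of AGGTCA with any 1 base between, the kind of site PPARG and RXR bind, was in 0 of the 7 on either strand and in 0.0171% of all windows and 0.0265% of those of genes kept in both lines. A single AGGTCA, which the repeat contains, was in 0 of the 7 and in 12.1% of all and 8.42% of those of kept genes. TATAAA was in 0 of the 7, in 10.7% of all and in 5.25% of those of kept genes. The GC content of the 7 windows ran from 58.0% to 82.8% with a median of 68.8%, beside 64.8% for genes kept in both lines. Letters in these windows say nothing about where a factor binds.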

How the data were processed

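Per the file headers, the authors deposited raw counts per gene, with 1 table per line and 1 column per library. The submitters' processing notes name Trim Galore, STAR, Bowtie, Picard, MACS2 and hg19 without roles; no source used here states the read counter or its strand setting. Each table had 37533 rows, 40 of which repeated an identifier and were summed. CPM and log2 folds (prior count 2) used TMM scaling within a line (edgeR 4.0.16, R 4.3.3). Ratio intervals were exact conditional binomial and CPM intervals exact Poisson, at 95%. The 4-library fit used edgeR's quasi-likelihood test on genes reaching 5 CPM in 2 or more libraries, with Benjamini-Hochberg adjustment at 0.05, and was tested on simulated data. That test gives no SE, so each SE shown is the size of the log2 fold divided by the square root of the test's F statistic. DESeq2 1.42.0 and limma 3.58.1 were alternatives. The 8 genes, the lists and the tests were chosen with earlier results of these data known. Named list genes were those past 1.5-fold in either line, at most 4 per list by size, with BMP2 and TGFBR3 added, plus the neighbours and the 6 most similar genes, 1 of which is not reported here. ACVR2A, SLC7A1, DPY19L4 and ASPHD1 were chosen after their values were seen. The peak lists were not assigned to genes, since no hg19 annotation was used here.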

Additional observations from a re-analysis of the deposited data

Results flagged for a closer look

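Among the named genes kept in both lines, 7 had siPPARG on opposite sides of its control in the 2 lines, with both counting intervals clear of a ratio of 1. Named list genes were mostly picked for being past 1.5-fold in a line. The share of all genes kept in both lines with such intervals was not counted, so nothing is read from the 7. INHBB had a log2 fold of siPPARG over control of 1.05 in OE33, where it passed the filter through the siPPARG library alone, and -0.18 in Eso26. LFNG had a log2 fold of siPPARG over control of -0.62 in OE33 and 0.38 in Eso26. DLL4 had a log2 fold of siPPARG over control of -0.42 in OE33 and 0.62 in Eso26. It passed the filter through the control library alone in OE33 and the siPPARG library alone in Eso26. Its opposite directions were therefore built into its selection. DICER1 had a log2 fold of siPPARG over control of 0.23 in OE33 and -0.97 in Eso26. TNRC6A had a log2 fold of siPPARG over control of 0.37 in OE33 and -0.80 in Eso26. CHD7 had a log2 fold of siPPARG over control of 0.23 in OE33 and -0.53 in Eso26. TGFBR3 had a log2 fold of siPPARG over control of 0.13 in OE33 and -0.59 in Eso26. Of these genes none is among the 8; DICER1 and TNRC6A are RNA interference genes, LFNG and DLL4 Notch pathway genes, INHBB and TGFBR3 genes of activin and BMP signalling and CHD7 the neighbour of ASPH. With 1 library per condition in each line, the difference between the lines was not tested. BMP2 and ADAMTS9, which were kept in OE33 alone, also had such intervals, on Eso26 counts of 2 in siPPARG against 12 in control for BMP2, and 4 in siPPARG against 14 in control for ADAMTS9.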

How the results depend on the processing

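The log2 folds of the 8 genes stayed below 0 under another scaling or prior count, between -0.99 and -0.62 in OE33 and between -1.04 and -0.52 in Eso26. Counts past the size threshold moved by construction with the filter and the threshold. In OE33 the count of lower genes was 448 at 1 CPM, 2135 with no filter, 44 at 2-fold and 1060 at the lowest threshold tried, and of higher genes 594, 1557, 110 and 1095 under the same settings. In Eso26 it was 221, 1150, 15 and 887 for lower and 412, 2342, 6 and 815 for higher genes, and 72 higher at 10 CPM. Genes lower in both lines numbered 20 at 1 CPM, 6 at 10 CPM, 177 with no filter, 3 at 2-fold and 132 at the lowest threshold. Of the 8 genes, 7 were among them with the settings as described, while 0 were among them at 2-fold, 5 at 10 CPM, which SLC7A2 and CACNA2D1 do not reach in Eso26, and 6 with library totals alone. The effect common to both lines called 0 genes by edgeR; DESeq2 called 11 lower and 2 higher, and edgeR with no filter 30 lower and 36 higher; the cause was not tested. Between the lines, edgeR called 3645 to 4022 genes higher and 3174 to 3712 lower when a library was left out with the treatment term, an alternative added after seeing the data, in which treatment enters the line difference. DPY19L1 lay between 0.51 and 1.39. TMEM245 lay between 0.080 and 0.85. FAM135A lay between -0.64 and 0.27. ACVR2B lay between -0.62 and 0.22. DPY19L1 was no longer past the test at 0.63 without Eso26 siPPARG, nor TMEM245 at 0.22 without Eso26 siPPARG. FAM135A reversed to 0.27 without Eso26 control and 0.100 without OE33 siPPARG, and ACVR2B to 0.22 without Eso26 control and 0.072 without OE33 siPPARG, neither past the test. Within a line no library can be left out. With 1 library per condition in each line, cultures within a line could not be paired. The 4-library fit has the line as a covariate, and so sets siPPARG against control within each line. The planned count of PPARG peaks at the 8 genes was not run. Depth limits SLC7A2, CACNA2D1 and ACVR2B most, whose Eso26 siPPARG counts were 54, 94 and 170.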
